A study of Rattus norvegicus with 12 samples.

Results

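Antioxidant and glutathione genes encode the enzymes that remove superoxide and peroxides, keep glutathione and thioredoxin reduced, and conjugate reactive compounds. On the array they were taken as the genes whose probe sets carried exactly 1 symbol beginning with Gst, Mgst, Gpx, Prdx, Txn or Sod and holding a digit, together with Cat, Nqo1, Hmox1, Hmox2, Gclc, Gclm, Gsr, Gss, Srxn1, Nfe2l2 and Keap1. These were 58 of 10411 genes, measured by 63 of 15866 probe sets, and each gene was represented by its probe set with the highest mean log2 signal. The stem and the digit were allowed to be parted by lower case letters, so that thioredoxin reductases, thioredoxin domain proteins and thioredoxin-like proteins were included. Of the 58 genes, 54 passed the filter on low signals, and Gpx6, Gsta3, Gstm3 and Gstt2 did not.

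The genes were measured in preadipocytes, the fibroblast-like precursors of fat cells, on 12 one-colour arrays. The 4 groups of 3 arrays were perirenal and epididymal cells of young rats (3 months) and of old rats (30 months), and the 6 animals each gave 1 culture per depot. All were male Brown Norway rats reared behind a barrier and free of specific pathogens. The cells were released with collagenase, plated, lifted, replated and grown to confluence, so that the values describe cultured cells and not fat tissue. Each value is a signal on a linear scale, differences are in log2 with the standard error (SE) from limma, and p-values are Benjamini-Hochberg adjusted over all 11106 probe sets tested, with a threshold of 0.05. They measure the spread between rats, with 1 array per rat and depot.

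Glutathione is built by glutamate-cysteine ligase and glutathione synthetase, spent by glutathione peroxidases and transferases, and recycled by glutathione reductase. Thioredoxin and the peroxiredoxins form a parallel route for removing peroxides, recycled by thioredoxin reductases. Many of these genes are induced by the transcription factor Nrf2 (encoded by Nfe2l2), which Keap1 otherwise delivers for degradation and which binds antioxidant response elements in promoters.

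Promoters were searched for the core letters of the antioxidant response element, TGACNNNGC, on both strands, from 250 bases before to 50 bases after each RefSeq gene start on build GRCr8. The letters were present in 18 of the 50 genes that had a promoter in the table (36%), against 3602 of 27457 genes overall (13.1%). Among genes with a promoter, a match was found in 4 of 12 that were higher and in 2 of 9 that were lower in perirenal cells, and in 11 of 26 that passed the filter and did not differ past the threshold. Matches are shown for the best-known inducible genes with a match, Gstp1 (pi-class transferase), Gclm (modifier subunit of the ligase) and Txnrd1 (thioredoxin reductase 1). The match of Hmox2, a heme oxygenase, is also shown. Of these 4 genes Hmox2 was higher in perirenal cells, and the other genes did not pass at the probe set taken by the rule. Nqo1, Srxn1 and Gclc were searched and had no match. Hmox1, Gsr, Sod3, Gstt1, Gstt2, Prdx6, Gpx8 and Mgst2 had no promoter in the table and were not searched. Each line reads 5′ to 3′ on the strand that holds the match, with the matched letters in capitals.
Gstp1: cactgtgtTGACTCAGCatccgggg
Gclm: gaagacaaTGACTAAGCagaaaccg
Txnrd1: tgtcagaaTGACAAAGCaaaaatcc
Hmox2: ggccaagcTGACACTGCcttccaag
The window of Gstp1 lies at chr1:210769750-210769774 and that of Gclm at chr2:213031955-213031979. The window of Txnrd1 lies at chr7:22755966-22755990 and that of Hmox2 at chr10:11337691-11337715. The matches in Gstp1, Txnrd1 and Hmox2 begin 61, 78 and 95 bases before the gene start and that in Gclm 172 bases before it. In Gstp1 the matched letters also contain the AP-1 letters TGACTCA. The match lies on the gene's own strand in Gstp1 and on the opposite strand in Gclm, Txnrd1 and Hmox2. A match is a description of letters in the reference promoter and not a measured binding site.

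The arrays of the depots also differed as arrays, which stands beside every depot difference below. The signal ratio of the 3′ to the 5′ control probe sets of beta-actin rises when labelled RNA is short. It ranged from 0.902 to 1.11 on the arrays of perirenal cells and from 5.25 to 55.0 on those of epididymal cells, and that of Gapdh from 1.06 to 1.17 and from 1.85 to 6.94. The dap spike-in control gave signals of 0.4 to 2.3 with perirenal and 493 to 766 with epididymal cells. Depot and these array properties cannot be told apart. Averaged over ages, 51.7% of all probe sets tested differed between depots past the threshold, 30.2% higher and 21.4% lower in perirenal cells. The marker counts here and in the next paragraph stand beside that share. Of 10 preadipocyte and fibroblast markers 1 was higher and 7 were lower in perirenal cells. Their summed signals were 101800 to 114900 in young perirenal and 95760 to 99750 in old perirenal cells. In epididymal cells they were 150500 to 160000 in young and 140400 to 171300 in old rats.

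Lists of markers of other cells summed to less than the fibroblast list and were not equal between depots. Some single markers were well above the filter level. Mesothelial Wt1 had geometric means of 1059 in young and 940 in old epididymal cells, and macrophage Lyz2 had 715 in old perirenal cells. The macrophage and leukocyte list summed to 836 to 1377 in young perirenal, 1338 to 2533 in old perirenal, 555 to 1154 in young epididymal and 667 to 1308 in old epididymal cells. In that list 4 of 6 tested markers were higher in perirenal cells and 0 lower, whereas the labels state no depot difference in macrophage markers, and Ptprc, Itgam and Cd74 were under the filter. The mesothelial list summed to 1095 to 1378 and 1177 to 1603 in young and old perirenal cells and to 2363 to 4036 and 2313 to 3316 in young and old epididymal cells, with 2 of 4 tested markers lower in perirenal cells. All 4 endothelial markers were under the filter. Of the epididymal epithelial list Defb22 alone was tested and was higher in perirenal cells, with list sums of 306 to 405 in perirenal and 55.5 to 169.9 in epididymal cells of both ages. Of 2 tested adrenocortical markers 1 was higher and 1 lower in perirenal cells, and the 1 tested erythroid marker did not pass the threshold. The part of these cells in the differences below was not tested, and fewer cells of a type cannot be told apart from less RNA per cell.

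Between depots, averaged over both ages, 27 of the 54 genes differed past the threshold, 15 higher and 12 lower in perirenal cells. That is 50%, against 51.7% of all probe sets tested, of which 30.2% were higher and 21.4% lower. The median log2 difference was -0.03 over the 54 genes and 0.08 over all probe sets. The depots did not overlap, with 6 arrays each, for 15 of the 54 genes (27.8%), against 27.7% of all probe sets. The genes as a list therefore differed between depots about as often as the rest of the array, and what follows is how the classes of enzyme were divided. Of the 27 genes, 26 differed in the same direction in 6 of 6 rats, and Mgst3 was higher in 5 of 6. The genes were called on these same arrays, so this agreement is no separate evidence for the calls.

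**Figure D1:**
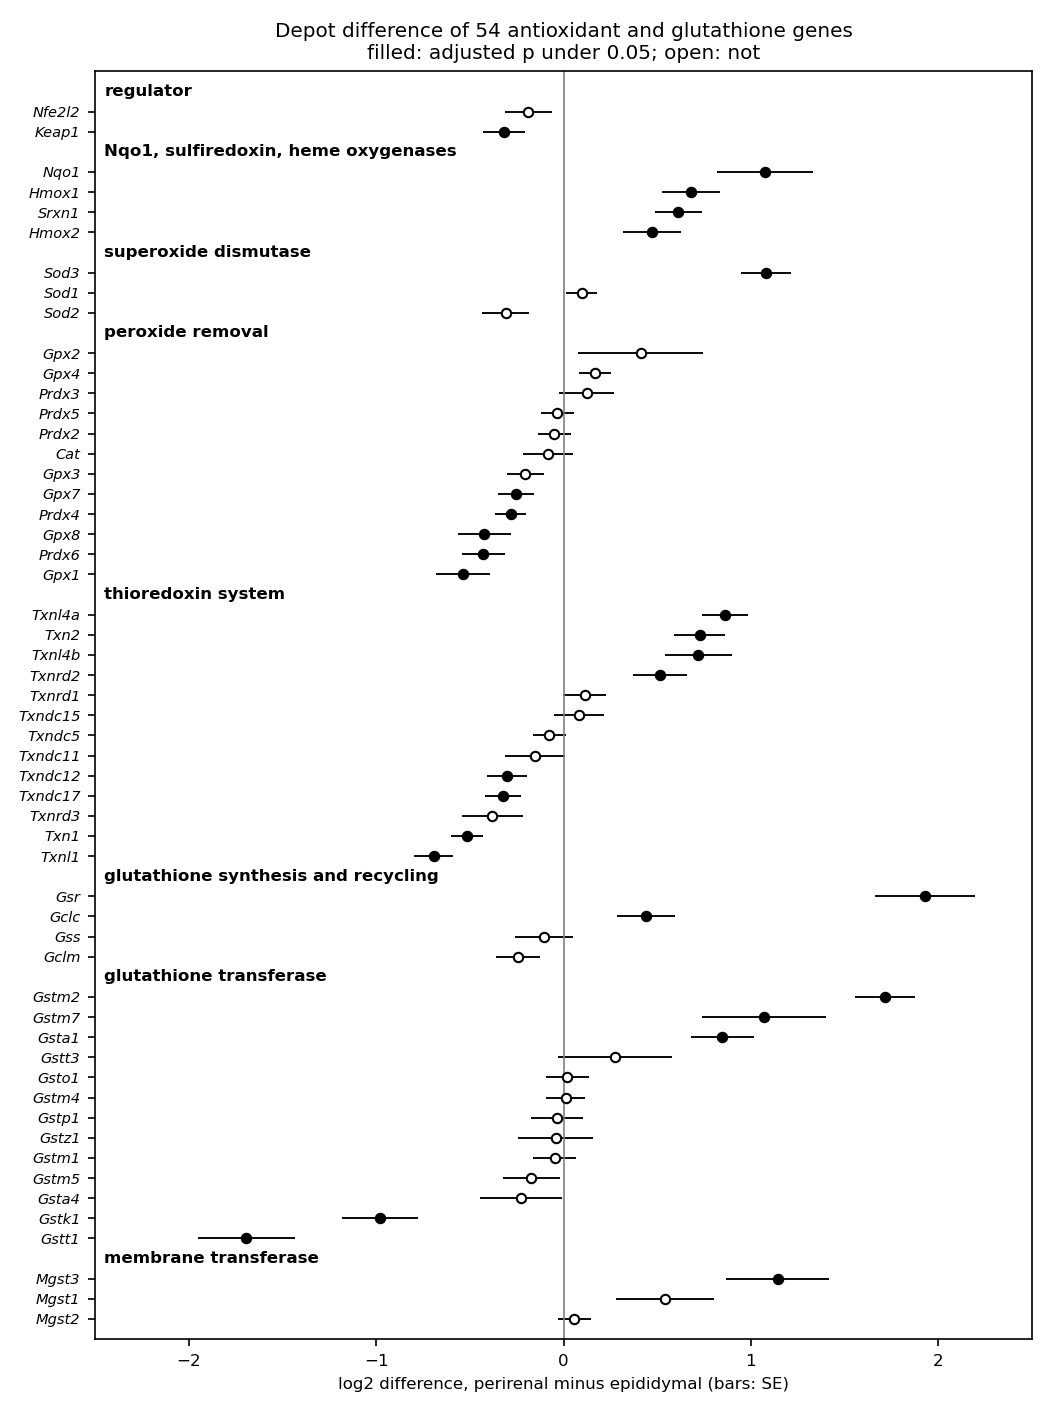
Log2 difference between perirenal and epididymal cells (x axis) of the 54 tested genes, ordered by role, each with its SE over 6 arrays per depot. Nqo1, Srxn1 and both heme oxygenases lie to the right of 0, the 5 called peroxide-removing enzymes lie to the left, and Gsr (1.93), Gstm2 (1.72) and Gstt1 (-1.69) lie farthest from 0.

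Nqo1, Srxn1 and the heme oxygenases Hmox1 and Hmox2 were all higher in perirenal cells, 4 of 4, with a median log2 difference of 0.65. Nqo1, Srxn1 and Hmox1 are inducible enzymes, whereas Hmox2 is the constitutive heme oxygenase and lost its call after quantile normalization. Nqo1 reduces quinones by transferring electrons in pairs. Its signal in perirenal cells was 949, 1967 and 1024 in young rats 1 to 3 and 1119, 2121 and 2941 in old rats 1 to 3. In epididymal cells it was 507, 874 and 762 in the young and 570, 1043 and 759 in the old rats. The ranges of the depots overlapped slightly, but each rat had the higher signal in its perirenal cells, by 1.08 ± 0.26 SE (2.11-fold, adjusted p = 0.00346, limma, n = 6 per depot).

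Hmox1, the inducible heme oxygenase, gave 1010, 1573 and 1520 in young and 1363, 1605 and 1883 in old perirenal cells. In epididymal cells it gave 803, 1238 and 1074 in the young and 721, 745 and 1025 in the old rats. The lowest perirenal array, young rat 1, fell within the epididymal range, and the difference was 0.68 ± 0.15 (1.6-fold, adjusted p = 0.00252). Srxn1, sulfiredoxin, which restores over-oxidised peroxiredoxins, gave 736, 856 and 643 in young and 564, 775 and 748 in old perirenal cells against 443, 399 and 560 in young and 496, 431 and 492 in old epididymal cells. No epididymal array reached the lowest perirenal one, and the difference was 0.61 ± 0.13 (1.53-fold, adjusted p = 0.00136). Hmox2 differed by 0.47 ± 0.15 (adjusted p = 0.0208), with signals of 370.0 to 511 and 237 to 450. The adjusted p was 0.0641 after quantile normalization, and the call was also lost without old rat 2 (0.0503) and without old rat 3 (0.0771).

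Of the 2 regulators, 0 were higher and 1 was lower in perirenal cells. Nfe2l2, the activator, had a median signal of 1639 in perirenal and 1791 in epididymal cells (-0.19 ± 0.13, adjusted p = 0.228), with the signal lower in perirenal cells in 6 of 6 rats. Keap1 gave 394, 366 and 411 in young and 411, 302 and 400.0 in old perirenal cells against 466, 529 and 498 in young and 414, 437 and 497 in old epididymal cells. Those ranges did not overlap, and Keap1 was lower in perirenal cells by the threshold (-0.32 ± 0.11, adjusted p = 0.0273), although not without young rat 2, young rat 3, old rat 2 or old rat 3 (adjusted p of 0.0547 to 0.109). A second Keap1 probe set, whose mean signal was under the filter, went the other way. It gave 182 to 266 on the perirenal and 2.8 to 34.3 on the epididymal arrays, with no overlap (adjusted p = 3.96e-05 in the fit without a filter), so that the direction of Keap1 is not settled.

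**Figure D2:**
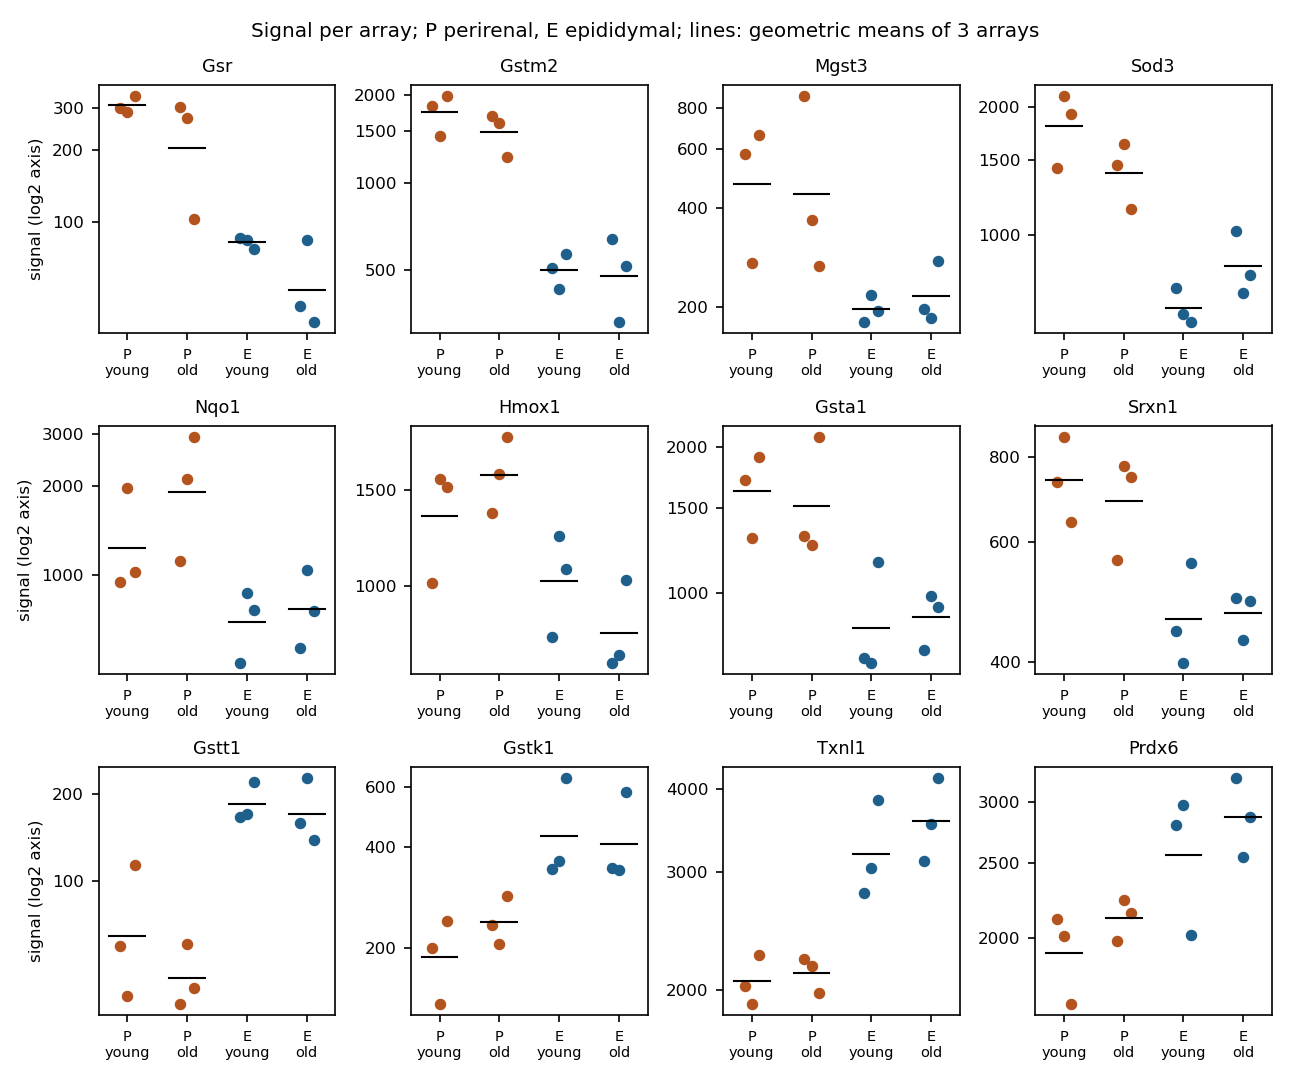
Signal per array (y axis, log2 scale) of 12 genes in the 4 groups of 3 rats, perirenal (P, orange) and epididymal (E, blue), with lines at the geometric means. Gsr, Gstm2, Sod3, Gsta1 and Srxn1 show no overlap between depots with perirenal cells above, Gstt1, Gstk1 and Txnl1 show none with perirenal cells below, and Mgst3, Nqo1, Hmox1 and Prdx6 overlap.

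Among the 3 superoxide dismutases the secreted form was higher in perirenal cells, and the calls of the other two depended on the model or the scaling. Sod3, the extracellular enzyme, gave 1433, 2126 and 1930 in young and 1464, 1633 and 1148 in old perirenal cells. In epididymal cells it gave 748, 650 and 624 in the young and 1019.5, 731 and 805 in the old rats. Every perirenal array was above every epididymal array, and the difference was 1.08 ± 0.13 (2.11-fold, adjusted p = 2.82e-05). The cytosolic Sod1 had medians of 5773 and 5407 (0.10 ± 0.08, adjusted p = 0.336), and passed as higher in perirenal cells after quantile normalization (0.30, adjusted p = 0.00835). The mitochondrial Sod2 had medians of 5106 and 6117 (-0.31 ± 0.13, adjusted p = 0.0553), with the lower signal in perirenal cells in 5 of 6 rats. With the rat as a fixed or a random block Sod2 passed as lower (adjusted p of 0.0361 and 0.0424), and after quantile normalization its difference was -0.11 (adjusted p = 0.468). It also passed without young rat 2 (0.0382) and without old rat 2 (0.0368).

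Of the 12 tested enzymes that remove peroxides, 0 were higher and 5 were lower in perirenal cells, with a median log2 difference of -0.14 over the 12. This split depended on the scaling, since after quantile normalization 2 were higher and 1, Prdx6, was lower. Prdx6, the peroxiredoxin that acts on phospholipid peroxides, gave 2113, 2011 and 1643 in young and 1980.1, 2241 and 2155 in old perirenal cells. In epididymal cells it gave 2804, 2975 and 2016 in the young and 3224, 2549 and 2866 in the old rats. Young rat 3 had the lowest signal in both depots and its epididymal array lay within the perirenal range, and the difference was -0.43 ± 0.11 (adjusted p = 0.00697). Prdx6 kept its call under quantile normalization and without each rat. It also passed when the 3′/5′ ratio was added to the model (-1.06, adjusted p = 0.0298). That model cannot separate depot from the ratio, whose ranges in the depots did not overlap.

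The other calls among peroxide-removing enzymes were less secure. Gpx1, the main cytosolic glutathione peroxidase, differed by -0.54 ± 0.14 (adjusted p = 0.00733), with perirenal signals of 3133 to 5703 and epididymal signals of 4637 to 7549. The endoplasmic reticulum enzymes Gpx8 (-0.42 ± 0.14, adjusted p = 0.023), Prdx4 (-0.28 ± 0.08, adjusted p = 0.0125) and Gpx7 (-0.25 ± 0.10, adjusted p = 0.0429) were also lower. Quantile normalization gave an adjusted p of 0.0718 for Gpx1, 0.183 for Gpx8, 0.192 for Prdx4 and 0.183 for Gpx7, and none of these calls was kept. The same scaling made Gpx4 (0.39, adjusted p = 0.0013) and Prdx5 (0.39, adjusted p = 0.00506) pass as higher in perirenal cells. Gpx8 also lost its call without young rat 3 or old rat 2 (0.0501 and 0.0746), Prdx4 without old rat 2 (0.0503), and Gpx7 without any 1 of the 6 rats (0.0573 to 0.158). Catalase, encoded by Cat, had medians of 831 and 892 (-0.08 ± 0.13, adjusted p = 0.623), and Gpx4, the peroxidase of membrane lipid peroxides, 5934 and 5557 (0.17 ± 0.08, adjusted p = 0.111). The remaining members, Gpx2, Gpx3, Prdx2, Prdx3 and Prdx5, had log2 differences from -0.20 to 0.41 and did not pass the threshold.

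In the thioredoxin group 4 of 13 genes were higher and 4 lower in perirenal cells. Mitochondrial thioredoxin was among the higher genes and cytosolic thioredoxin among the lower. Txn2, mitochondrial thioredoxin, gave 1969, 2243 and 1628 in young and 1911, 1857 and 2503 in old perirenal cells. It gave 972, 1385 and 1294 in young and 1047, 1517 and 1118 in old epididymal cells. The groups did not overlap, and the difference was 0.73 ± 0.14 (1.66-fold, adjusted p = 0.000701). Txnrd2, the mitochondrial reductase, had signals of 205 to 286 in perirenal and 134 to 203 in epididymal cells, also without overlap (0.51 ± 0.14, adjusted p = 0.00959), and lost the call after quantile normalization (0.105) and without young rat 3 (0.0542).

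Txn1, cytosolic thioredoxin, gave 12021, 14049 and 10422 in young and 12197, 12137 and 14093 in old perirenal cells. In epididymal cells it gave 16928, 16809 and 17583 in the young and 16197, 18879 and 20262 in the old rats. All epididymal arrays were above all perirenal ones (-0.51 ± 0.09, adjusted p = 0.000301). After quantile normalization the difference was -0.07 and the call was lost (adjusted p = 0.472), so the Txn1 call depends on the scaling. Txnl1, a thioredoxin-like protein of the cytosol, had perirenal signals of 1911 to 2259.5 and epididymal signals of 2795 to 4153 (-0.69 ± 0.10, adjusted p = 0.000133).

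Txndc17 (-0.33 ± 0.10, adjusted p = 0.0126) and the endoplasmic reticulum protein Txndc12 (-0.30 ± 0.11, adjusted p = 0.0309) were lower. Txndc12 lost its call without young rat 1, young rat 2, old rat 1 or old rat 3 (0.0783 to 0.103). Txnl4a (0.86 ± 0.12, adjusted p = 9.4e-05) and Txnl4b (0.72 ± 0.18, adjusted p = 0.00425) were higher. These have a thioredoxin-like fold but belong to the spliceosome, so they carry the name of the group without its known function. Txnl4a had signals of 924 to 1184 in perirenal and 470.0 to 770.5 in epididymal cells, and Txnl4b lost its call after quantile normalization (0.1). The same scaling made Txndc5 pass as higher (0.21, adjusted p = 0.0485) and Txnrd3 as lower (-0.65, adjusted p = 0.00801).

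In glutathione synthesis and recycling 2 of 4 genes were higher and 0 lower. Gsr encodes glutathione reductase. Its signal was 298, 288 and 336 in young and 301, 272 and 103 in old perirenal cells, and 85.6, 84.4 and 77.3 in young and 44.5, 83.8 and 38.4 in old epididymal cells. Old rat 3 had the lowest signal in both depots, and its perirenal array still lay above every epididymal array. The difference was 1.93 ± 0.27 (adjusted p = 7.44e-05) and was 1.51 after quantile normalization. The geometric mean of Gsr in old epididymal cells, 52.3, was under the filter level of 56.3, so a fold is not given.

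Gclc, the catalytic subunit of glutamate-cysteine ligase, was 0.44 ± 0.15 higher in perirenal cells (adjusted p = 0.0279), with signals of 341 to 498 and 248 to 459 that overlapped. The call was lost after quantile normalization (0.0785), without young rat 1, 2 or 3 and without old rat 3 (0.057 to 0.0772). Gclm, its modifier subunit, had medians of 267 and 310 (-0.24 ± 0.12, adjusted p = 0.103), and passed as lower after quantile normalization (-0.38, adjusted p = 0.0172). Gss, glutathione synthetase, had medians of 807 and 846 (-0.10 ± 0.16, adjusted p = 0.593).

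Glutathione transferases conjugate glutathione to reactive compounds. Of 13 tested, 3 were higher, 2 lower and 8 did not pass the threshold. Gstm2, a mu-class enzyme, gave 1841, 1450.3 and 1988 in young and 1696, 1599 and 1225 in old perirenal cells. It gave 510.0, 431 and 570.3 in young and 642, 333 and 517 in old epididymal cells. The lowest perirenal array was well above the highest epididymal one, and the difference was 1.72 ± 0.16 (3.29-fold, adjusted p = 3.43e-06).

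Other mu-class genes did not share this difference past the threshold, with Gstm1 at -0.05 ± 0.11 (adjusted p = 0.746), Gstm4 at 0.01 ± 0.10 (0.932) and Gstm5 at -0.17 ± 0.15 (0.362). Gstm7 differed by 1.07 ± 0.33 (adjusted p = 0.016), with signals of 66.2 to 106 and 21.6 to 83.8. Both of its epididymal groups had geometric means under the filter level, and the call was lost after quantile normalization (0.244), without young rat 2 (0.0709) and without old rat 1 (0.0512). Mu-class genes are near-identical in places, and which transcripts each probe set detects could not be checked, since probe sequences were not used here.

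Gsta1, an alpha-class enzyme, gave 1713, 1296 and 1912 in young and 1308, 1254 and 2100.0 in old perirenal cells against 733, 717 and 1159.7 in young and 763, 984 and 937 in old epididymal cells. No arrays of the depots overlapped, and the difference was 0.85 ± 0.17 (1.8-fold, adjusted p = 0.00101). It also passed when the model held the 3′/5′ ratio (1.55, adjusted p = 0.0471), although that model cannot separate depot from the ratio. Gsta4 did not pass in the main test (-0.23 ± 0.22, adjusted p = 0.403). Gstp1 had medians of 4762 and 4727 (-0.03 ± 0.14, adjusted p = 0.85).

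Gstt1, a theta-class enzyme, was lower in perirenal cells. It gave 60.0, 40.3 and 114 in young and 37.9, 60.8 and 43.1 in old perirenal cells, and 166, 170.4 and 220.5 in young and 159, 227 and 139 in old epididymal cells. Young rat 3 stood highest among the perirenal arrays and yet below all epididymal ones (-1.69 ± 0.26, adjusted p = 0.00016). The geometric mean was 54.9 over all perirenal and 46.3 over old perirenal arrays, under the filter level of 56.3, so no fold is given. Gstt1 thus passed the filter on mean signal through its epididymal arrays. Gstk1, the mitochondrial and peroxisomal kappa-class enzyme, gave 201, 137 and 242 in young and 235, 206 and 285 in old perirenal cells against 344, 362 and 639 in young and 346, 340.4 and 579 in old epididymal cells. These ranges did not overlap, and the difference was -0.98 ± 0.20 (1.97-fold lower, adjusted p = 0.00142).

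Of the 3 membrane transferases 1 was higher and 0 lower. Mgst3, which acts on lipid peroxides and leukotriene precursors, gave 582, 272 and 663 in young and 869.7, 368 and 266 in old perirenal cells. It gave 181, 217 and 194 in young and 198, 186 and 275 in old epididymal cells. Old rat 3 was the exception, with 266 in perirenal and 275 in epididymal cells, and the difference over all rats was 1.14 ± 0.28 (2.21-fold, adjusted p = 0.0039). Mgst1 had medians of 2469.6 and 1356 (0.54 ± 0.26, adjusted p = 0.0969, and 0.0344 with the rat as a fixed block), and Mgst2 medians of 2905 and 2749.8 (0.06 ± 0.09, adjusted p = 0.598).

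For several genes a second probe set gave another size of difference. The second probe set of Gclc gave 390, 516 and 385 in young and 235, 437 and 296 in old perirenal cells, but 16.9, 37.7 and 57.6 in young and 106, 135 and 61.2 in old epididymal cells. These did not overlap, and its difference was 2.69 ± 0.29 (adjusted p = 1.1e-05) beside 0.44 for the probe set taken by the rule. All 3 young epididymal signals lay near or under the filter level, so the size of this difference is poorly measured. That of Txnrd1, cytosolic thioredoxin reductase, gave 827 to 1465 in perirenal and 191 to 439 in epididymal cells (2.01 ± 0.18, adjusted p = 3.08e-06). The brighter Txnrd1 probe set had medians of 1872 and 1777 (0.11 ± 0.11, adjusted p = 0.422), so for Txnrd1 the call rests on the choice of probe set.

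The second probe set of Txnl1 gave 1099 to 1443 in perirenal and 1153 to 2522 in epididymal cells (-0.41, adjusted p = 0.0684). Another probe set of Txnl1, under the filter, gave 0.4 to 30.9 and 9.9 to 48.8 (adjusted p = 0.00376 in the fit without a filter), with the higher signals on the epididymal arrays. In Gclc, Txnrd1 and Keap1 the probe set not taken by the rule had the larger depot difference, with the lower signals on the epididymal arrays, whose 3′/5′ ratios were the higher ones, and in Txnl1 the under-filter probe set went the other way. The positions of these probe sets along the transcripts were not used here, and the part of the 3′/5′ ratio in these differences was not tested.

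**Figure D3:**
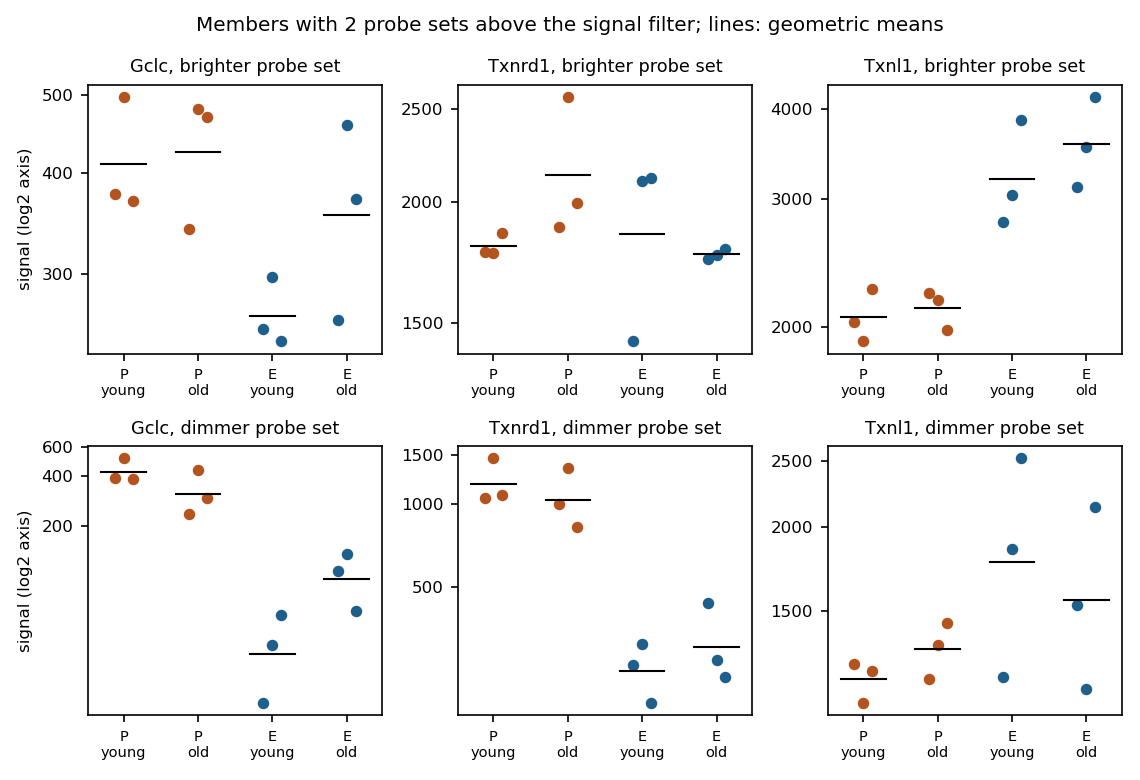
Signal per array (y axis, log2 scale, lines at geometric means) of the probe sets of Gclc, Txnrd1 and Txnl1 that passed the filter, in perirenal (P, orange) and epididymal (E, blue) cells, with the one taken by the rule (brighter) above. For Gclc and Txnrd1 the second probe set separates the depots by 2.69 and 2.01 in log2, whereas the probe set taken by the rule gives 0.44 and 0.11.

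The depot differences were also tested within each age, with 3 arrays per depot. In young rats 18 of 54 genes passed, 11 higher and 7 lower (33.3%), against 34.9% of all probe sets (20% higher and 14.9% lower). In old rats 13 passed, 10 higher and 3 lower (24.1%), against 31.8% (19.2% higher and 12.5% lower). Past the threshold at both ages were Gsr, Gsta1, Gstm2, Sod3, Srxn1, Txn2 and Txnl4a, all higher in perirenal cells, and Gstt1, Txn1 and Txnl1, all lower. Sod3 differed by 1.43 ± 0.19 in young rats (adjusted p = 0.000142) and by 0.73 ± 0.19 in old rats (adjusted p = 0.0105). Hmox1 differed by 0.97 ± 0.22 in old rats (adjusted p = 0.00504), as did Nqo1 by 1.32 ± 0.36 (0.0146) and Mgst1 by 1.20 ± 0.37 (0.0252). Sod2 differed by -0.52 ± 0.18 in young rats (adjusted p = 0.0391).

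No difference between the ages in these depot differences is shown, since the interaction reached the threshold for 0 genes, as described below. The counts within an age fell when a rat of that age was left out, and so did the share of all probe sets. In young rats 9 genes passed without young rat 1 and 10 without young rat 2 (23.3% and 22.8% of all probe sets). In old rats 6 passed without old rat 2 (16.4% of all probe sets). Calls that passed without each rat in turn were those of Gsr, Gstk1, Gstm2, Sod3, Txnl1 and Txnl4a in young rats and of Gsr, Gstm2, Gstt1 and Txnl1 in old rats. Among the calls named here, that of Sod3 in old rats was lost without old rat 2 (adjusted p = 0.134), that of Hmox1 without old rat 2 (0.0549), that of Nqo1 without old rat 2 or 3 (0.05 and 0.121), that of Mgst1 without any 1 of the old rats (0.0862 to 0.145) and that of Sod2 in young rats without young rat 1, young rat 3 or old rat 1 (0.0568 to 0.166). With the rat as a fixed block the lower calls in old rats numbered 7 in place of 3, with Gpx1, Gpx8, Gstk1 and Prdx6 added. With the same block Nqo1 (0.83, adjusted p = 0.0134) and Hmox1 (0.39, adjusted p = 0.0401) also passed in young rats, Hmox2 passed in old rats (0.58, adjusted p = 0.0253), and the calls of Srxn1 in old rats (0.0583) and Prdx4 in young rats (0.0501) were lost.

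With age, no gene of the list differed past the threshold in either depot. In perirenal cells 0 of 54 genes passed, against 0% of all probe sets, and 0 had an unadjusted p under 0.05 (4.38% of all probe sets did). The 3 smallest p-values for higher signals in old rats were those of Nqo1 (0.62 ± 0.36), Gclm (0.26 ± 0.17) and Txnrd1 (0.24 ± 0.16), and for lower signals those of Sod3 (-0.37 ± 0.19), Gsr (-0.59 ± 0.38) and Prdx2 (-0.19 ± 0.12), all with an adjusted p of 0.999. The young and old arrays did not overlap for 4 of 54 genes (7.41%), against 13.6% of all probe sets. The 95% interval of the difference lay within 2-fold in either direction for 49 of the 54 genes (90.7%), against 80.4% of all probe sets. The other 5 were Gpx2, Gsr, Gstm7, Gstt1 and Nqo1.

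In epididymal cells 0 of 54 genes passed, against 0.072% of all probe sets. An unadjusted p under 0.05 was reached by 4 genes (7.41%, against 8.35% of all probe sets), each with the lower signal in old rats. Mgst1, the microsomal transferase that also reduces lipid peroxides, gave 1519.5, 2137 and 5176 in young and 1192, 1009.8 and 1139 in old epididymal cells. All 3 old arrays lay below the young ones, whose own values spread widely, and the difference was -1.21 ± 0.37 (adjusted p = 0.382). In perirenal cells Mgst1 gave 1589, 3451 and 2416 in young and 2523, 2039 and 3233 in old rats, which overlapped.

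The other 3 were Gpx2, a glutathione peroxidase best known from the gut (-1.23 ± 0.47, adjusted p = 0.505), Sod1 (-0.28 ± 0.12, 0.534) and Cat (-0.40 ± 0.19, 0.597). Cat gave 911, 983 and 1073 in young and 789, 604 and 874 in old epididymal cells without overlap, and Sod1 gave 6085, 5402 and 5934 against 4668, 4298 and 5411, which overlapped. Gpx2 lay near the filter level, with 24.2 to 67.0 in old epididymal cells. The smallest p-values for higher signals in old rats were those of Prdx5, the peroxiredoxin of mitochondria and peroxisomes (0.26 ± 0.13, adjusted p = 0.611), Gclm (0.34 ± 0.17, 0.612) and Gclc (0.42 ± 0.22, 0.634). The second Gclc probe set, not taken by the rule, was higher in old rats by 1.53 ± 0.41 (unadjusted p = 0.00252, adjusted p = 0.293, limma). Its young epididymal signals lay near or under the filter level. Gclm gave 298, 259 and 293 in young and 322, 368 and 383 in old epididymal cells, and these did not overlap. Young and old arrays did not overlap for 6 of 54 genes (11.1%), against 10.6% of all probe sets. Here the 95% interval lay within 2-fold for 49 genes (90.7%, against 77.5%), and the exceptions were Gpx2, Gsr, Gstm7, Gstt3 and Mgst1.

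**Figure D4:**
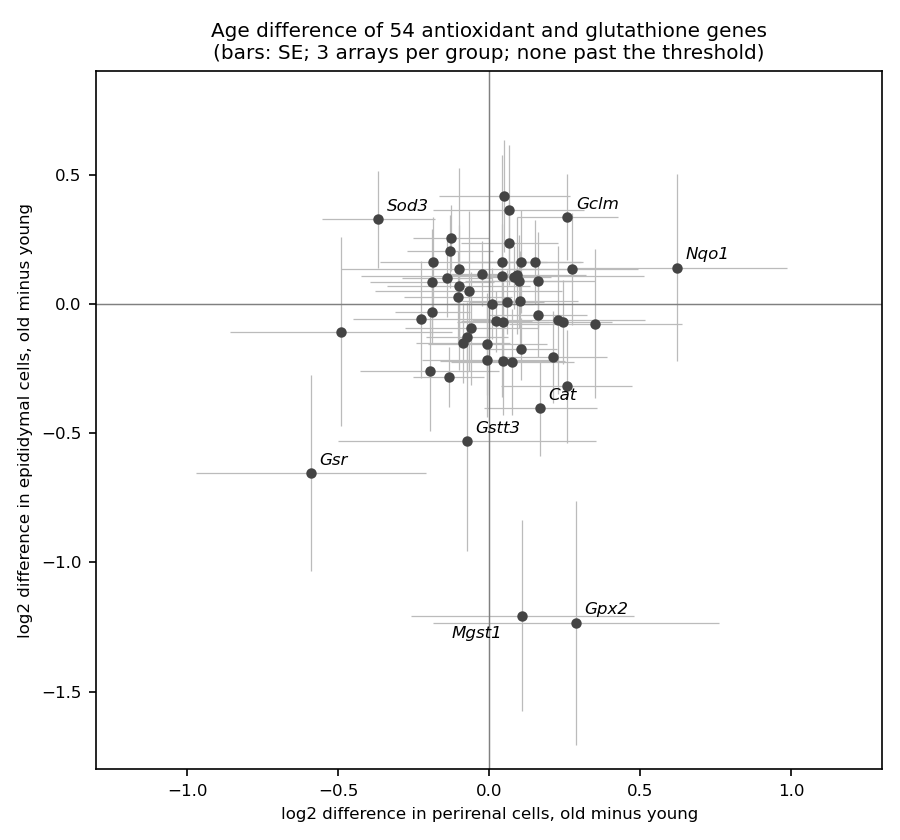
Log2 difference between old and young rats in perirenal cells (x axis) and epididymal cells (y axis) of the 54 genes, with SE bars over 3 arrays per group. Most genes lie near 0 on both axes, Mgst1 and Gpx2 lie at -1.21 and -1.23 in epididymal cells, and none passed the threshold.

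Averaged over depots, with each rat's mean as 1 value, 0 of 54 genes differed with age, against 0.018% of all probe sets, and 0 reached an unadjusted p under 0.05 (5.83% of all probe sets did). The genes with the smallest p were Gclm (0.30 ± 0.13), Mgst1 (-0.55 ± 0.26), Gsr (-0.62 ± 0.29) and Sod1 (-0.21 ± 0.10), each with an adjusted p of 0.844. Among higher signals in old rats Gclm was followed by Nqo1 (adjusted p = 0.883) and Gstm5 (0.205 ± 0.16, adjusted p = 0.894). Nfe2l2 differed by 0.09 ± 0.14 and Keap1 by -0.12 ± 0.12, and the targets Nqo1, Hmox1 and Srxn1 by 0.38 ± 0.28, -0.03 ± 0.18 and -0.04 ± 0.11. The secreted Sod3 differed by -0.02 ± 0.12, the mitochondrial Sod2 by 0.00 ± 0.13 and Txn1 by 0.09 ± 0.09.

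The interaction, the age difference in perirenal minus that in epididymal cells, passed for 0 of 54 genes, against 0% of all probe sets, and had an unadjusted p under 0.05 for 4 genes (7.41%, against 5.51%). For Sod3 the age differences of -0.37 and 0.33 gave an interaction of -0.69 ± 0.26 (adjusted p = 0.855). Prdx5 (-0.38 ± 0.18, adjusted p = 0.896) and Gpx3 (-0.33 ± 0.20, 0.906) had the next smallest p among negative interactions. The interactions of Mgst1 (1.31 ± 0.52, adjusted p = 0.855), Gpx2 (1.52 ± 0.67, 0.87) and Cat (0.57 ± 0.26, 0.896) had the opposite sign. The second Gclc probe set, not taken by the rule, gave -1.98 ± 0.58 (adjusted p = 0.846). The geometric means of Sod3 were 1805 in young and 1400.0 in old perirenal cells and 672 in young and 843 in old epididymal cells.

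The genes around these enzymes were followed in 5 further lists, with depot counts averaged over ages. Each count here and in the next paragraph stands beside 51.7% of all probe sets, 30.2% higher and 21.4% lower in perirenal cells. Of 8 genes that supply NADPH, on which both reductases depend, 2 were higher and 3 lower in perirenal cells. Pgd, of the pentose phosphate pathway, was higher by 0.65 ± 0.11 (adjusted p = 0.000316), and Me1, cytosolic malic enzyme, lower (-0.74 ± 0.14, adjusted p = 0.000869). Of 8 other Nrf2 targets 3 were higher and 1 lower, among them Akr1b8, an aldo-keto reductase (0.60 ± 0.10, adjusted p = 0.000229), and Abcc1, a transporter of glutathione conjugates (0.56 ± 0.13, adjusted p = 0.00245).

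Glutathione turnover and the glutaredoxins gave 5 higher and 4 lower of 14. Ggt5, a cell-surface enzyme that cleaves glutathione conjugates, had geometric means of 652 in perirenal and 135 in epididymal cells (2.27 ± 0.19, adjusted p = 1.87e-06). Oplah, 5-oxoprolinase, which returns glutamate to the cycle, was lower in perirenal cells (-0.83 ± 0.12, adjusted p = 0.000111). Of 13 metal-binding and other protective genes 2 were higher and 3 lower, with the metallothionein Mt2A at 1.23 ± 0.32 (adjusted p = 0.00579) and the paraoxonase Pon2 at -0.55 ± 0.14 (adjusted p = 0.00464). Of 8 oxidant-producing enzymes 3 were higher and 0 lower, among them Nos2, inducible nitric oxide synthase (2.27 ± 0.55, adjusted p = 0.00373), and Cybb, the phagocyte oxidase subunit (1.47 ± 0.51, adjusted p = 0.0279). The epididymal geometric means of Nos2 and Cybb were 56.2 and 52.8, under the filter level, and Cybb is also a leukocyte gene, beside the higher macrophage markers of perirenal cells. With age, 0 genes of these 5 lists passed in either depot or averaged over both. The smallest unadjusted p was that of Ggt5 in perirenal cells (-1.04 ± 0.28, adjusted p = 0.71).

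Across the alternatives 15 of the 27 depot calls were kept under quantile normalization, without the 2 arrays of highest 3′/5′ ratio (old rat 2 and young rat 3, epididymal), in the fit blocked by rat and without each rat in turn. These were Gsr, Gsta1, Gstm2, Hmox1, Mgst3, Nqo1, Sod3, Srxn1, Txn2 and Txnl4a, higher in perirenal cells, and Gstk1, Gstt1, Prdx6, Txndc17 and Txnl1, lower. At its second probe set Txnl1 did not pass (-0.41, adjusted p = 0.0684). Gstt1 had a perirenal geometric mean of 54.9, under the filter level of 56.3, and Gsr was under that level in old epididymal cells. The matching count over all probe sets is not given here, so 15 of 27 has no comparison. Without the 2 arrays Gpx8 (adjusted p = 0.0679), Keap1 (0.0565) and Gpx7 (0.136) lost their calls. When the model held the 3′/5′ ratio, whose ranges in the depots did not overlap, 2 calls were kept, Gsta1 and Prdx6, and all 27 kept their sign. Under that model 2.47% of all probe sets passed, in place of 51.7%. Some differences that lost their call were larger in it, as for Gsr (2.57, adjusted p = 0.0614), Nqo1 (1.56, 0.197) and Txn2 (1.08, 0.0997), and others were smaller, as for Gpx8 (-0.08, 0.921) and Sod3 (0.73, 0.23).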

How the data were processed

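Total RNA of 12 cultures was labelled as biotin cRNA from an oligo-dT primer and hybridised to one-colour arrays. The authors deposited intensity values, 1 linear signal per probe set, made with MAS5 per the submitters' processing notes. Its version and parameters were not given in the sources used here. Each array's trimmed mean (2% left out at each end) was 500.13 to 500.17, so this scaling was kept. Signals were put on the log2 scale, with 2 signals of 0 set to 0.1. The 57 array controls of 15923 probe sets and the 30% with the lowest mean log2 signal (geometric mean under 56.3) were left out, and 11106 were tested. Only probe sets with 1 symbol in the platform annotation were named (12783; 312 had several and 2771 none), and all 58 genes matched a RefSeq gene of the same symbol.

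Differences were fitted with limma 3.58.1 in R 4.3.3 (1 term per group, all 12 arrays, moderated variance with an intensity trend), adjusted by Benjamini-Hochberg at 0.05, with 95% intervals from the same fit. The age difference over both depots used rat means. The script was tested on simulated data. The number of arrays limits the precision. Named were the 8 largest rises and falls between depots, the 3 smallest p per direction for age and interaction, fixed central members, and up to 2 genes per further list; other called members were named to complete each role. Members and lists were chosen with earlier results of these data known. The labels give both depots of a rat the same animal number, and deviations from group means correlated at 0.0393 to 0.201 within a rat. Every perirenal array matched its own rat's epididymal array best, but epididymal arrays of young rat 3 and old rat 2 matched another rat's perirenal array better. Alternatives covered normalization, filter, offset, trend, the 3′/5′ ratio, the rat as a block, left-out rats, a narrower reading of the symbols, and all probe sets of a gene.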

Additional observations from a re-analysis of the deposited data

How the results depend on the processing

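When the model held the 3′/5′ ratio, the number of genes past the threshold between depots fell from 27 to 2 over both ages, from 18 to 2 in young rats and from 13 to 0 in old rats. Over all probe sets the share fell as well, to 2.47%, 3.71% and 0.288%. Leaving out 1 rat at a time gave 23 to 24 genes over both ages, 9 to 18 in young rats and 6 to 17 in old rats. The shares of all probe sets were then 43.7% to 46.5%, 20.8% to 35.1% and 16.4% to 31.5%. Under the other alternatives the 3 counts stayed within 1.5 times. Pairing depots by animal gave 29, 21 and 17 genes with the rat as a fixed block. The shares of all probe sets were 51.8%, 35.4% and 32.5%. A random block gave 28, 20 and 19 genes, with shares of 54.1%, 37.9% and 35.3%. Over both ages none of the 27 calls was lost with the fixed block, and Mgst1 and Sod2 were added. After quantile normalization the counts were 23, 13 and 14, and 48.5%, 33.7% and 28.3% of all probe sets passed. The median difference of all probe sets moved from 0.08 to -0.03. That scaling moved the higher share of the genes' calls from 55.6% to 60.9% over both ages. In young rats this share moved from 61.1% to 76.9% and in old rats from 76.9% to 78.6%. For all probe sets it moved, in the same order, from 58.5% to 46.6%, from 57.3% to 46.6% and from 60.5% to 48%. A narrower reading without the Txnrd, Txndc and Txnl genes gave 21 of 43, 14 and 11. Counts for age and for the interaction were 0 under each alternative that could be fitted; age could not be fitted with the rat as a fixed block. No called difference reversed at the probe set taken by the rule. For Keap1, called lower there, the under-filter probe set passed as higher in the fit without a filter (4.75, adjusted p = 3.96e-05). Signals near the filter level, as for Gpx2, Gsr, Gstm7 and Gstt1, limit the size of those differences.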

Other observations

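Probe sets with several symbols were kept out of the list, and 2 of them belong to the same families. The probe set of Prdx1, the abundant cytosolic peroxiredoxin, and its paralogue Prdx1l1 had signals of 8490.3 to 9972 in perirenal and 6871 to 10256 in epididymal cells (0.16 ± 0.09, adjusted p = 0.143, limma with Benjamini-Hochberg adjustment). The probe set of the alpha-class transferases Gsta5 and Gsta2 had geometric means of 100.4 and 74.8 (0.43 ± 0.31, adjusted p = 0.268). With age, Prdx1 and Prdx1l1 differed by -0.09 ± 0.13 in perirenal and 0.17 ± 0.13 in epididymal cells, with adjusted p of 0.999 and 0.75.

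The 4 genes under the filter had low signals throughout. Gpx6 ranged from 3.2 to 14.6 in perirenal and from 1.4 to 36.2 in epididymal cells, Gstm3 from 13.9 to 24.0 and from 2.3 to 66.7, and Gstt2 from 26.0 to 49.3 and from 19.2 to 56.2. Gsta3 gave 27.9, 37.5 and 18.3 in young and 1.7, 3.9 and 13.7 in old perirenal cells, which did not overlap, and the fit without a filter gave an adjusted p of 1.0.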
